A study of Mus musculus with 5 samples.

Results

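Transcription factors of the developing and adult striatum were examined for acetylation of lysine 9 of histone H3 (H3K9ac) at their transcript starts in STHdh Q111 cells. The set held 9 genes of the 22380 protein-coding genes of GENCODE vM1, namely Bcl11b, Foxp1, Foxp2, Rarb, Meis2, Isl1, Ebf1, Ikzf1 and Six3. A peak was assigned to a gene where its centre lay within 10 kb of any annotated transcript start of that gene on the mm9 assembly. The set was named from the known biology of these factors and not from their H3K9ac values, although earlier results of these data were known. STHdh Q111 cells (genotype STHdhQ111/Q111, strain given as C57BL/6) are conditionally immortalised mouse striatal progenitor cells that carry an expanded glutamine tract in both alleles of huntingtin, and every sample came from this mutant line. Cells were kept in serum-free medium for 24 h, either with vehicle alone (serum starvation, SST, here called untreated) or with 4 mM 4-deoxypyridoxine hydrochloride (DOP), an inhibitor of sphingosine-1-phosphate lyase. Chromatin from 2 samples of each condition was precipitated with an H3K9ac antibody, and 1 IgG control sample from serum-starved cells was not analysed here. The deposited peaks formed 1 list for each condition, with no replicate lists, so every difference between the lists below is a description without a replicate check or a test.

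Medium spiny neurons make up most of the striatum, and their identity is set by a cascade of transcription factors. Ebf1 and Isl1 act in developing neurons of the direct pathway and Six3 and Ikzf1 in those of the indirect pathway, while Bcl11b (Ctip2), Foxp1, Foxp2, Rarb and Meis2 stay active in postmitotic striatal neurons. H3K9ac is a mark of active promoters, placed by histone acetyltransferases and removed by histone deacetylases, and it is usually found on the nucleosomes around the transcription starts of expressed genes.

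The DOP list held 34286 peaks and the untreated list 33355, each about 200 bp long, with median scores of 419 and 400. The score is a number given to each peak by the authors' peak caller, and its definition was not given in the sources used here. Each score is therefore accompanied by its percentile, the share of peaks of the same list with an equal or lower score. The read depth behind each peak is unknown here. The cell type given in the labels was read against marker genes in the same way. A peak lay within 10 kb of a start for 2 of 5 neural progenitor markers (Vim and Msi1, but not Nes, Sox2 or Pax6), for Ppp1r1b but not Drd1a, Drd2, Adora2a, Penk or Tac1 among striatal projection neuron markers, and for 0 of 4 interneuron markers. The nearest peak to Nes lay 10194 bp from a start in each list, just past the limit. For Ppp1r1b the nearest peak was 346 bp from a start in the DOP list and 4083 bp in the untreated list. All 3 fibroblast markers (Col1a1, Col1a2 and Pdgfra) had peaks in both lists. So had 1 of 3 astrocyte markers (Slc1a2), 1 of 3 oligodendrocyte markers (Mog) and 1 of 3 microglial markers (Aif1). Mbp, another oligodendrocyte marker, had peaks in the DOP list alone. A peak was counted whatever its rank. The highest peaks in the DOP and untreated lists stood at percentiles 10.1 and 6.54 for Slc1a2 and 23.7 and 13.5 for Mog. Those of Aif1 stood at 98.1 and 94.3, and the highest of Mbp at 7.58. For Col1a1, Col1a2 and Pdgfra they were 89.6, 23.6 and 49 in the DOP list and 63.7, 25.5 and 36.3 in the untreated list. The peaks near Mog lay 5155 bp or more from a start and those near Aif1 5982 bp or more. Of the striatal projection neuron markers named here, Ppp1r1b alone had peaks, and the part of cell identity in the results on the 9 factors was not tested. In bulk chromatin, a mark carried by fewer cells and a weaker mark in each cell cannot be told apart.

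The sequences of 6 DOP peaks of members are printed as examples, with every CG dinucleotide in capitals. They do not cover the full range. An untreated Foxp1 peak at 98976315 held 1 CG dinucleotide and a DOP peak at the upstream RefSeq start of Foxp1 held 31. The mm9 positions and strands are as follows: the Foxp1 internal peak at chr6:98977857-98978056, the peak at the upstream RefSeq start of Foxp1 at chr6:99471555-99471754 and the distal Foxp1 peak at chr6:99225508-99225707, all on the minus strand, the Meis2 exon peak at chr2:115888938-115889137 and the Meis2 upstream peak at chr2:115892037-115892236, both on the minus strand, and the Ebf1 peak at chr11:44431784-44431983 on the plus strand. Each is printed 5′ to 3′ along the strand of its gene.
Foxp1 internal start, DOP: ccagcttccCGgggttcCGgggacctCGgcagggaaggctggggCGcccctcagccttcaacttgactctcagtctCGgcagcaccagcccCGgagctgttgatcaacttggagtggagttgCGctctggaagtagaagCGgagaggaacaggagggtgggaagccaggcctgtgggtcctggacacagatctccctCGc
Foxp1 RefSeq start, DOP: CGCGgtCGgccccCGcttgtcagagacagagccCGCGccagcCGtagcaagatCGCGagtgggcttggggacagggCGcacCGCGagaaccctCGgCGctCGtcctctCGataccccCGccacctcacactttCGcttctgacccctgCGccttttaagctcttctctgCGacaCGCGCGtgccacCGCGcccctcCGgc
Foxp1 distal, DOP: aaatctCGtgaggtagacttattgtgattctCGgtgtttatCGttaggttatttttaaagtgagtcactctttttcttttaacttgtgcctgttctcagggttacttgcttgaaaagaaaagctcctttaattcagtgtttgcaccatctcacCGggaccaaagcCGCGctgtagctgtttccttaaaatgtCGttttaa
Meis2 exon, DOP only: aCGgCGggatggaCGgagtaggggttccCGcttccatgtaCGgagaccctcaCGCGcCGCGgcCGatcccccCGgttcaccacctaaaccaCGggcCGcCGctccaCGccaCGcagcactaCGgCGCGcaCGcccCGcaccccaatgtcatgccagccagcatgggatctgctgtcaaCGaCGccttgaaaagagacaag
Meis2 upstream, DOP: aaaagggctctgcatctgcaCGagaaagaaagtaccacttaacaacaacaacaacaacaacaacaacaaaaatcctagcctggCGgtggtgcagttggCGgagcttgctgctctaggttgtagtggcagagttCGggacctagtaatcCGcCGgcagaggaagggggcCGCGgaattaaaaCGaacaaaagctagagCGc
Ebf1 intron, DOP: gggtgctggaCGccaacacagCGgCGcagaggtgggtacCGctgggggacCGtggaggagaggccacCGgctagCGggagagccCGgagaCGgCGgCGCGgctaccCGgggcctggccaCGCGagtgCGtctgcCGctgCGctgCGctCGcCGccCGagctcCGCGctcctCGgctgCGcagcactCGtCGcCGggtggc

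The 6 sequences hold 9, 26, 7, 23, 10 and 29 CG dinucleotides in the order printed, and the median over all 34286 DOP peaks was 10. The Ebf1 sequence and the sequence at the RefSeq start of Foxp1 are the richest in CG, while the distal Foxp1 sequence is 39% G and C, against a median of 59.5% over the DOP list.

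Of the 9 genes, 4 had a DOP peak and 3 had an untreated peak. Foxp1, Meis2 and Ebf1 had peaks in both lists, Foxp2 had a peak in the DOP list alone, and Bcl11b, Rarb, Isl1, Ikzf1 and Six3 had no peak within 10 kb in either list. The members' shares were 44.4% and 33.3%, beside 57.7% of all coding genes with a DOP peak and 56.9% with an untreated peak. The 5 genes without a peak in either list stood beside 40.7% of all coding genes, and the 1 gene found in the DOP list alone beside 2.39%. In all, 13 DOP peaks and 14 untreated peaks were assigned to members.

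The number of peaks was higher in the DOP list for 3 members, Foxp2, Meis2 and Ebf1, each by 1 peak, and lower for Foxp1. At 13272 coding genes at least 1 of the lists had a peak, and of these 32.5% had more DOP peaks and 28.5% had fewer. Of the members' peaks, 5 of 13 DOP peaks and 5 of 14 untreated peaks shared no base with a peak of the other list, that is 38.5% and 35.7%. Among all peaks near coding genes these shares were 16.2% in the DOP list and 13.3% in the untreated list. The unshared peaks of the members had a median score percentile of 20.6 in the DOP list and 36.2 in the untreated list, and the shared ones 67.8 and 41.4.

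**Figure D1:**
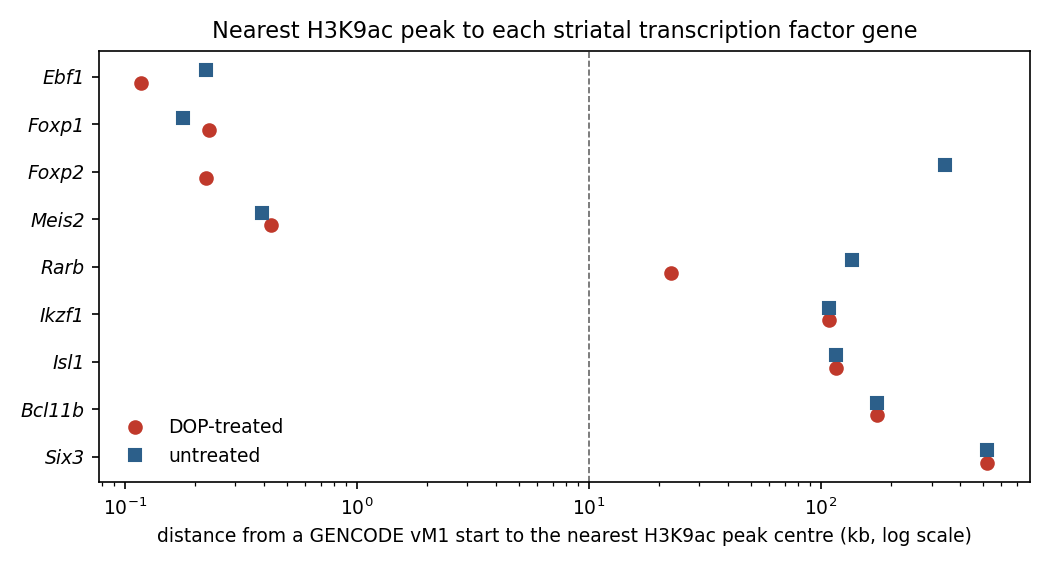
Distance in kb, on a log scale, from any GENCODE vM1 start of each gene to the nearest H3K9ac peak centre in the DOP-treated list (circles) and the untreated list (squares), with the 10 kb limit as a dashed line. Ebf1, Foxp1 and Meis2 lie left of the line in both lists and Foxp2 in the DOP list alone, while Bcl11b, Rarb, Isl1, Ikzf1 and Six3 lie right of it.

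Foxp1 encodes a forkhead repressor of striatal and cortical neurons and is annotated at chr6:98875332-99216526 on the minus strand (ENSMUSG00000030067.9), with 16 transcripts that begin at 10 starts in 5 separate groups. It had 3 DOP and 7 untreated peaks. The highest in each list lay in an intron beside an internal group of starts at chr6:98978186-98978936, from which shorter transcripts begin. In the DOP list this peak, centred at position 98977956, scored 1091.0 (percentile 89.8) and lay 230 bp downstream of the nearest start. The untreated counterpart was centred 52 bp away, at 98978008, and scored 1029.0 (percentile 88.7). Both lists thus had a peak of similar rank at the same place.

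A second pair lay at the same group of starts. The DOP peak at 98978668 scored 837.6 (percentile 80.8) and the untreated peak at 98978612 scored 864.0 (percentile 83.1), 56 bp apart. Another, weak pair lay far upstream of the longest GENCODE transcripts, inside an intron of Eif4e3, which encodes a cap-binding protein. The DOP peak at 99225607 scored 151.0 (percentile 16.9) at 9081 bp from the nearest Foxp1 start, and the untreated peak at 99225654 scored 116.0 (percentile 13.5) at 9128 bp. These were the member peaks nearest to the 10 kb limit from inside, and the nearest outside was a Meis2 DOP peak at 16.7 kb.

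The other 4 untreated peaks of Foxp1 shared no base with a DOP peak. Their centres were at 98976315 (score 257.0, percentile 32.8), 98977183 (score 284.0, percentile 36.2), 98977365 (score 398.0, percentile 49.8) and 98979141 (score 163.0, percentile 19.9). All 4 flanked the shared pairs, at 473 to 1641 bp from the nearest DOP peak, and none ranked above the median of its list. The difference of 3 against 7 peaks at Foxp1 therefore consisted of lower-ranking peaks around strong shared ones. Among genes with a peak, 96.3% had as many untreated peaks as Foxp1 or fewer, and 64.8% as many DOP peaks or fewer.

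The RefSeq promoter table (GRCm38.p6) gave a further start of Foxp1 that the GENCODE vM1 models lack. It was looked for after the values above were seen. Promoter sequences of 8 of the 9 members were in the table, with 12 starts, and all 12 matched mm9 exactly and at 1 position. Of these starts, 10 lay within 100 bp of a GENCODE start, 1 start of Ebf1 lay 1533 bp from one, and 1 start of Foxp1, at position 99470987 of chromosome 6, lay 254 kb upstream of any.

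At this upstream start Foxp1 had 6 DOP and 5 untreated peaks, all within 2290 bp and all shared between the lists. The DOP peaks centred at 99471550 and 99471654 overlapped each other and the same untreated peak, at 99471664. The highest DOP peak, at 99470619 and 368 bp downstream of the start, scored 1144.0 (percentile 91), and the untreated peak 22 bp from it scored 932.0 (percentile 85.6). The highest untreated peak, at 99471664 and 677 bp upstream, scored 1216.5 (percentile 92.8), and the DOP peak 10 bp from it scored 1036.1 (percentile 88.2). The remaining DOP peaks lay upstream with scores of 419.3, 887.6, 715.0 and 535.0, and the remaining untreated peaks with 750.5, 719.8 and 405.2. In GENCODE vM1 this region is an intron of Eif4e3. With this start included, the best-ranked Foxp1 peak in each list was here and not at the internal starts, and the members had 19 peaks in each list in place of 13 and 14.

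**Figure D2:**
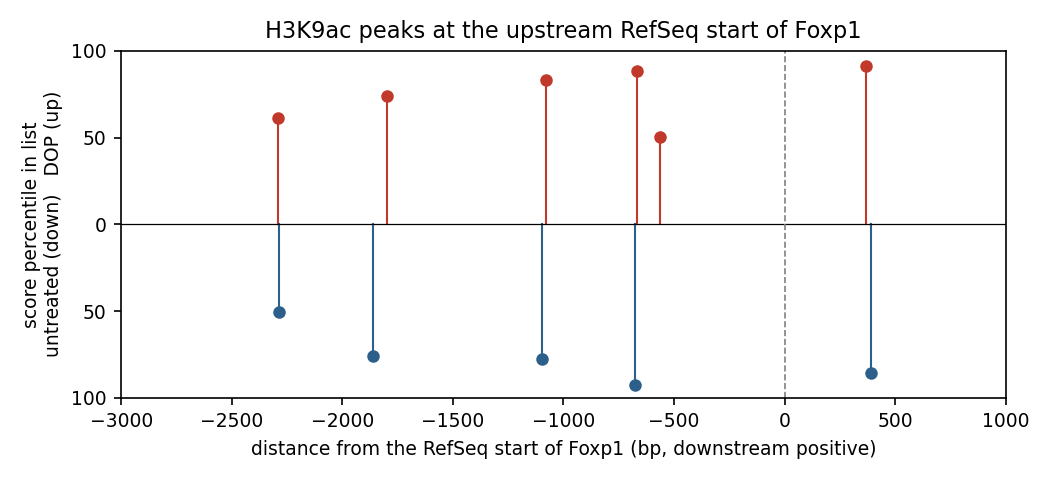
H3K9ac peaks around the upstream RefSeq start of Foxp1 (dashed line at 0), by distance of the peak centre in bp, with the score percentile of DOP peaks drawn upwards and that of untreated peaks downwards. All 6 DOP and 5 untreated peaks are filled, which marks an overlap with a peak of the other list, and they span 2290 bp upstream to 390 bp downstream.

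Meis2 encodes a homeodomain factor of the TALE class that is expressed in striatal progenitors and projection neurons. It lies at chr2:115688800-115891575 on the minus strand (ENSMUSG00000027210.11), with 18 transcripts and 15 starts in 6 groups. Its 5 DOP and 4 untreated peaks fell at the 5′ end of the gene, on either side of the most upstream group of starts.

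Within Meis2, the shared pair lay in an intron, at 115889776 in the DOP list (score 769.0, percentile 77.2) and at 115889813 in the untreated list (score 721.0, percentile 76.2). A further DOP peak at 115889037 (score 732.0, percentile 75.2) lay over a coding exon, 771 bp upstream of a more internal start, and no untreated peak overlapped it. The nearest untreated centre was 776 bp away, at the intronic pair. It was the highest-ranking of the 5 unshared DOP peaks of the set, and its sequence, printed above, holds 23 CG dinucleotides.

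Upstream of Meis2, the strongest DOP peak at 115892136 (score 820.3, percentile 79.9) overlapped the untreated peak at 115892058 (score 657.4, percentile 72.3). Farther out, a DOP peak at 115892675 (score 462.7, percentile 54.6) and an untreated peak at 115892451 (score 452.6, percentile 55.5) lay 224 bp apart and shared no base, so that each counted as unshared. The outermost pair scored 290.0 (percentile 35.2) in the DOP list and 323.0 (percentile 41) in the untreated list. These last 4 peaks lay nearer to the starts of the non-coding genes G630016G05Rik and 2700033N17Rik than to Meis2, so their assignment to Meis2 rests on distance alone.

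Ebf1, a helix-loop-helix factor that directs the differentiation of direct-pathway neurons, lies at chr11:44430819-44821593 on the plus strand (ENSMUSG00000057098.7). It had 4 DOP and 3 untreated peaks, and its highest peak in each list ranked below the highest of Foxp1 and of Meis2. The highest DOP peak at 44431883 (score 501.0, percentile 58.3), in an intron 202 bp downstream of a start, faced untreated peaks at 44431904 (score 326.7, percentile 41.4) and 44432003 (score 236.3, percentile 30), which both overlapped it. The upstream pair scored 224.5 (percentile 26.9) in the DOP list and 186.0 (percentile 23.2) in the untreated list, 61 bp apart. At Ebf1 the DOP peak ranked higher at both shared places.

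Ebf1 had 2 peaks in the DOP list alone. One lay over the 5′ UTR, 118 bp from the start, with a score of 178.5 (percentile 20.6), and the other lay 5973 bp upstream with a score of 70.0 (percentile 6.17). Neither reached the percentile of the shared upstream pair's DOP peak. Among the highest peaks of all genes with a peak, that of Ebf1 stood at percentile 26.2 in the DOP list and 15.9 in the untreated list, whereas Foxp1 by its GENCODE starts stood at 72.2 and 70.6 and Meis2 at 52.7 and 48.3.

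Foxp2, the forkhead factor known for its part in vocal and motor learning, spans chr6:14851349-15391977 on the plus strand (ENSMUSG00000029563.10), with 19 transcripts from 15 starts in 6 groups. It had a single DOP peak and no untreated peak. This peak, centred at 14851703 over the 5′ UTR and 225 bp downstream of a start, scored 84.0, which put it at percentile 8 of the DOP list. Among the highest peaks of the 12910 genes with a DOP peak, it stood at percentile 2.87. The nearest untreated peak to any Foxp2 start was 344 kb away, close to Mdfic. A weak peak in 1 list is thus the whole difference at Foxp2.

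**Figure D3:**
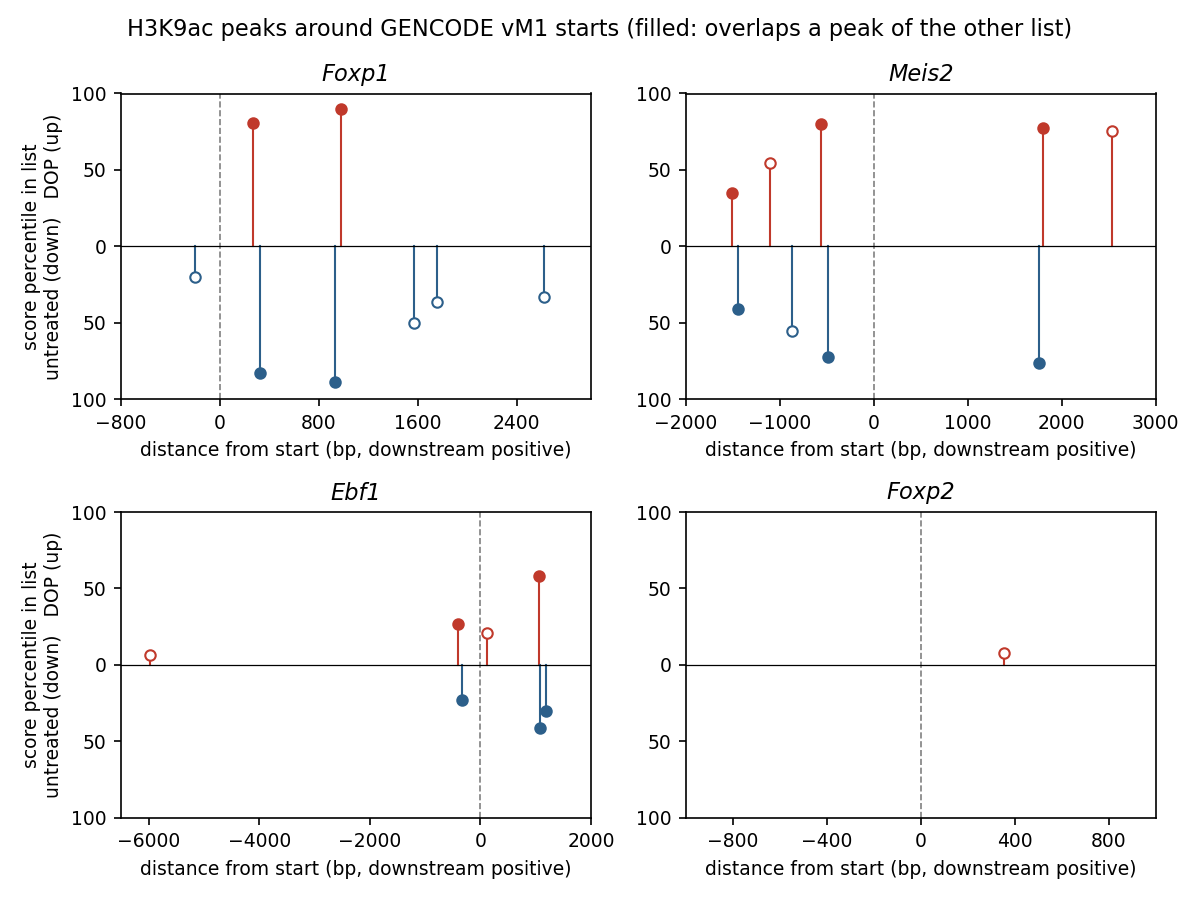
H3K9ac peaks within 10 kb of GENCODE vM1 starts, by distance in bp of the peak centre from the most upstream start of the internal group of Foxp1 and of the most upstream group of Meis2, Ebf1 and Foxp2 (dashed line at 0), with the score percentile drawn upwards for DOP peaks and downwards for untreated peaks. Filled points overlap a peak of the other list and open points do not, and the distal Foxp1 pair at 9081 and 9128 bp is outside the panel.

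The remaining 5 genes had no peak within 10 kb of any start, and most lay far from one. Bcl11b, a zinc finger factor required for the differentiation of medium spiny neurons (chr12:109148613-109241812, minus strand, ENSMUSG00000048251.9), was 175 kb from the nearest peak in each list, which lay at Setd3. Ikzf1, the zinc finger factor Ikaros (chr11:11585006-11672929, plus strand, ENSMUSG00000018654.10), was 108 kb from strong peaks at Fignl1, with percentiles of 80.5 in the DOP list and 83.1 in the untreated list. Six3, a homeobox factor of indirect-pathway neurons (chr17:86012948-86031153, plus strand, ENSMUSG00000038805.7), was the farthest, at 522 kb in the DOP list and 523 kb in the untreated list. The median of this distance over coding genes without a peak was 89.8 kb in the DOP list and 89.6 kb in the untreated list, and Bcl11b, Ikzf1, Isl1 and Six3 lay beyond it in both lists.

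Isl1, a LIM-homeodomain factor of direct-pathway and cholinergic neurons (chr13:117088478-117099896, minus strand, ENSMUSG00000042258.5), had its nearest peak at 117 kb in both lists. The DOP and untreated peaks there were 116746 and 116748 bp from the start and were among the lowest-scoring of their lists, at percentiles 0.184 and 0.747. Rarb, the retinoic acid receptor beta (chr14:17263356-17651381, minus strand, ENSMUSG00000017491.7), had a DOP peak 22.6 kb from a start and inside the gene, with a score of 42.0 (percentile 2.64). Its nearest untreated peak was at 136 kb. Rarb was thus the only one of the 5 whose nearest peak differed by more than 1 kb between the lists.

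The Rarb promoter is known for a retinoic acid response element of the DR5 type, direct repeats of a hexamer spaced by 5 bases, through which retinoic acid raises its own receptor. A search for the DR5 consensus on both strands, in the 250 bases upstream of every member's starts, found it only at Rarb, from base −57 to base −41 of the internal start at position 17407986 of chromosome 14. It is printed here, with the element in capitals, because the promoter held it and carried no H3K9ac peak in either list. The sequence is chr14:17407987-17408086 of mm9 on the minus strand, 5′ to 3′, ending 1 base before the start.
Rarb promoter: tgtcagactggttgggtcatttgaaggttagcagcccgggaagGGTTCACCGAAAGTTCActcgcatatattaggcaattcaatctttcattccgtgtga

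Of 22380 coding genes, 0.0581% held the same element within 250 bases upstream of their most upstream start, a narrower search than that over all starts of the members. Among the peaks of the members the element occurred in 0 of 13 in the DOP list and 0 of 14 in the untreated list, against 0.0496% and 0.039% of all peaks. The GC box GGGCGG was in 1 of 13 DOP and 3 of 14 untreated peaks of the members, against 28.5% and 29.3% of all peaks, and CCAAT in 2 of 13 and 0 of 14, against 13.9% and 13.6%. Both strands were read for each motif and overlapping peaks were counted separately. The matches are descriptions of letters only, and the members' numbers are too small to compare.

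CpG-rich sequence was found at starts with and without H3K9ac peaks. Transcript starts closer than 1 kb to each other were joined into 29 groups. The ratio of observed to expected CpG was computed in 1 kb around the midpoint of each group. In 9 groups, belonging to 8 of the 9 genes, the ratio was 0.6 or more at 2 decimals, a level typical of CpG islands. Of these 9, 3 had a DOP peak within 1 kb, at Foxp1 (ratio 0.87), Foxp2 (ratio 0.88) and Meis2 (ratio 0.60), and only the Foxp1 group also had an untreated peak. The 6 without a peak were those of Ikzf1 (0.96), Bcl11b (0.82), Rarb (0.77), Isl1 (0.77) and Six3 (0.70 and 0.61). Of the other 20 groups, 2 had a DOP peak, at Meis2 (0.48) and Ebf1 (0.52), and both also had an untreated peak. These 2 ratios depend on the placing of the window. The Meis2 group spans 115890204 to 115891575, and its window leaves out the starts at both ends. The Ebf1 window ends just before the intron peak printed above, which has a ratio of 0.99 over its own length. The upstream RefSeq start of Foxp1, which is outside these 29 groups, had a ratio of 0.77 and peaks in both lists.

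The counts by group of starts within 1 kb have no counterpart over all coding genes here. For comparison with other genes, only the most upstream start of each was used. Of 10214 coding genes with a ratio of 0.6 or more there, 88.3% had a DOP peak and 87.9% an untreated peak within 10 kb of a start. Of the 5 members that met this condition, Bcl11b, Foxp2, Meis2, Isl1 and Six3, 2 had a DOP peak and 1 an untreated peak. Foxp1, Rarb, Ebf1 and Ikzf1 were not among them, because their most upstream GENCODE starts had ratios of 0.25, 0.08, 0.49 and 0.46. The upstream RefSeq start of Foxp1, with a ratio of 0.77 and peaks in both lists, was not used in this comparison. Nor were the CpG-rich groups of Rarb (0.77) and Ikzf1 (0.96), which had no peak. The median ratio was 0.73 over coding genes with peaks in both lists and 0.22 over genes with peaks in neither.

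**Figure D4:**
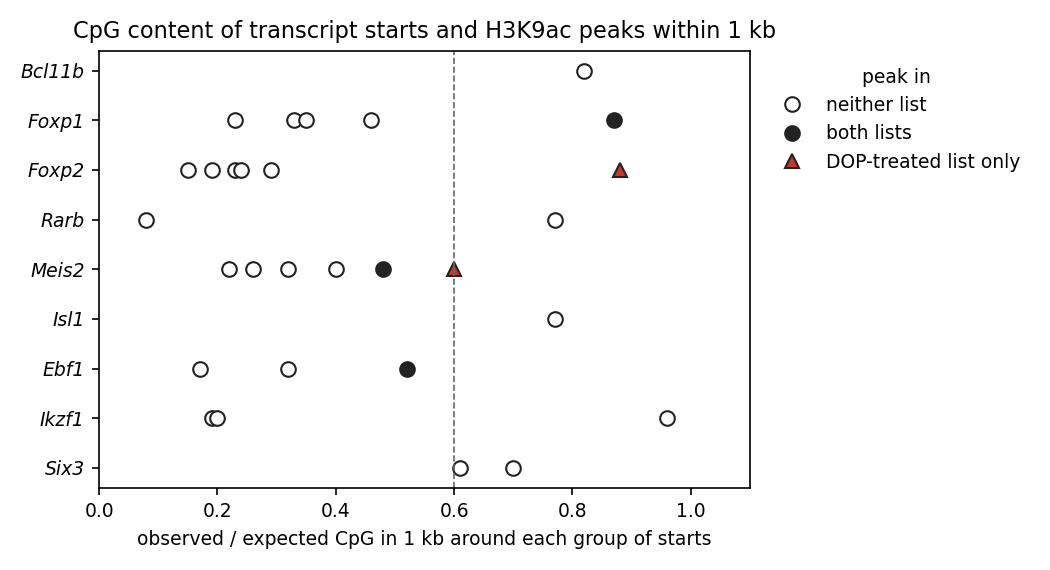
Ratio of observed to expected CpG in 1 kb around each of the 29 groups of transcript starts of the 9 genes, with filled circles for groups with a peak within 1 kb in both lists, triangles for groups with a DOP peak alone and open circles for groups with none. The dashed line at 0.6 has 6 open points on its right, from Bcl11b, Rarb, Isl1, Ikzf1 and Six3.

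Related genes were read in the same way to place the members among their families. Of 28 family members and receptor partners, 22 had a DOP peak and 20 an untreated peak, with 93 and 85 peaks. Their shares were 78.6% and 71.4%, beside 57.7% and 56.9% of all coding genes. The assignment of these peaks rests on distance alone, up to 10 kb. The list was 19 genes with peaks in both lists, 3 in the DOP list alone, 1 in the untreated list alone and 5 in neither. Of all coding genes, 2.39% had a peak in the DOP list alone and 40.7% in neither. More peaks in the DOP list were counted for 11 genes and more in the untreated list for 6. The 5 genes with peaks in neither list have no part in these counts. Of all coding genes with a peak in at least 1 list, 32.5% had more DOP peaks and 28.5% had fewer.

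The highest numbers were those of Rara, the retinoic acid receptor alpha, with 12 peaks in each list, and Rarg, the gamma receptor, with 10 DOP and 8 untreated peaks, whereas the beta receptor gene Rarb had none. Pbx2, a cofactor of Meis proteins, followed with 10 DOP and 7 untreated peaks. A single peak in 1 list only was found at 4 genes, namely Bcl11a, Isl2 and Ebf4 in the DOP list, at percentiles 5.35, 10.5 and 11.9, and Ebf2 in the untreated list, at percentile 6.27. Like the Foxp2 peak, all 4 ranked low in their lists.

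**Figure D5:**
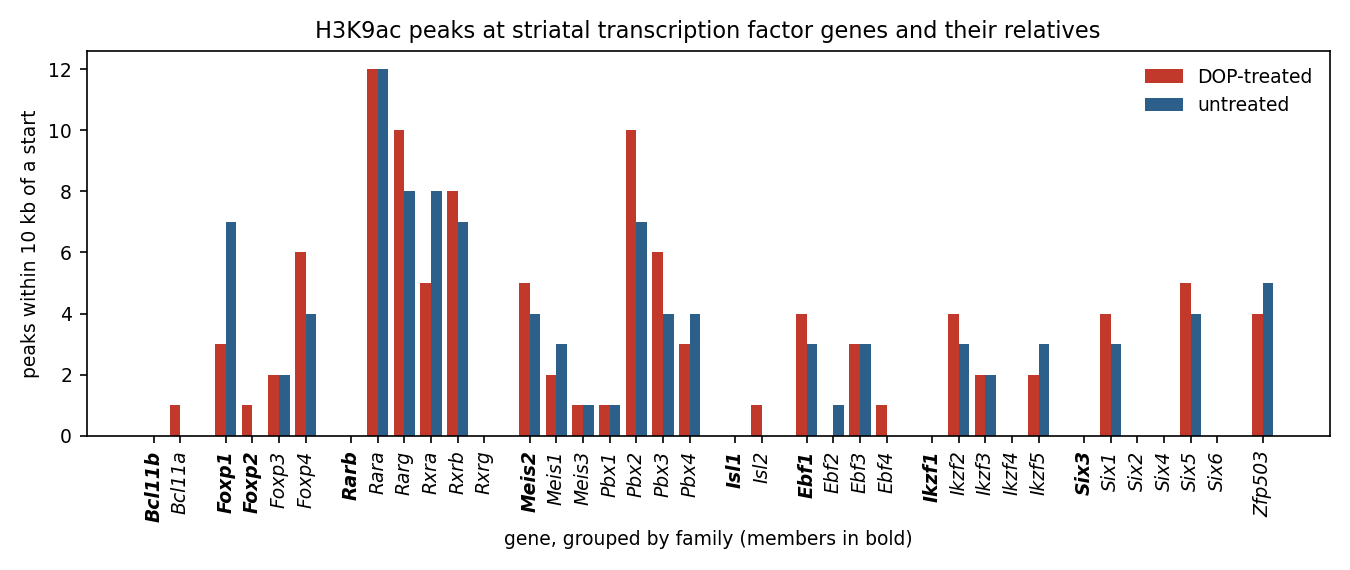
Number of H3K9ac peaks within 10 kb of a GENCODE vM1 start in the DOP-treated and untreated lists for the 9 members (bold) and 28 related genes, grouped by family. Rara has 12 in each list beside 0 for Rarb, and the members without bars are Bcl11b, Rarb, Isl1, Ikzf1 and Six3.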

How the data were processed

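H3K9ac was measured by ChIP-seq in 2 DOP-treated and 2 untreated (SST) samples of STHdh Q111 cells, beside 1 IgG sample. The authors deposited 1 peak list per condition in mm9 coordinates, and the peak score in it is the number their caller (GPS per the study's methods, GEM per the file headers) wrote for each event. The methods name Bowtie 2 as aligner, whereas the submitters' processing notes list BWA 0.7.10. How the samples were pooled, how the control entered and which threshold applied were not given in the sources used here, and read depth is unknown. Both deposited lists hold more peaks than the methods state, and the reason is not given in the sources used here.

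From the lists, peaks were assigned to any transcript start of GENCODE vM1 (NCBIM37, the same assembly as mm9) within 10 kb of the peak centre, counting 22380 coding genes. Peaks of the lists were called shared where they overlapped by at least 1 bp. Score percentiles were taken within each list. The one peak that was not 200 bp long was left out of motif searches. All 9 members were named with every peak. Of the related genes, those with a peak in 1 list only and the 3 with the most peaks were named. One striatal projection neuron marker is not reported here. Members, gene lists and rules were chosen with earlier results of these data known. RefSeq promoter sequences were placed on mm9 by exact match over 300 bases. Scripts used Python 3.11.15, pysam 0.24.0, numpy 2.4.6 and matplotlib 3.10.9 and were tested on simulated data. With 1 list per condition no test was made. Alternatives were other windows, coding transcripts only, stronger peaks only, other sharing rules and added RefSeq starts.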

Additional observations from a re-analysis of the deposited data

How the results depend on the processing

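Of 90 values recomputed under an alternative, 17 were counted as moved and 73 were not, but some of the 73 also changed widely. Member peaks in the DOP list were 9 with a 1 kb window and 19 with RefSeq starts added, in place of 13. In the untreated list they were 10 and 19, in place of 14. The number of members with a peak (4 in the DOP list and 3 in the untreated list) ranged from 3 to 5 and from 2 to 3 over the alternatives, the DOP list gaining Rarb with a 50 kb window and losing Foxp2 among peaks scoring at least 100. The unshared DOP peaks, 5 of 13 by the main rule, were 3 of 9 with a 1 kb window and 9 of 17 with a 50 kb window. They were 3 of 7 among the top 50% of peaks by score and 3 of 11 among peaks scoring at least 100. For the top 50%, both lists were cut before sharing was read. The highest Ebf1 DOP peak thus counted as unshared there, as its overlapping untreated peaks stood at percentiles 41.4 and 30. Where a centre of the other list within 500 bp counted as shared, the unshared DOP peaks were 3 of 13. With the same rule at 1 kb they were 2 of 13. The unshared untreated peaks, 5 of 14 by the main rule, were 3 of 10 with a 1 kb window and 1 of 5 among the top 50%. They were 3 of 14 with the 500 bp rule and 1 of 14 with the 1 kb rule. The shares over all peaks near coding genes are given above for the main rule only. In the top 50%, 7 DOP and 5 untreated member peaks were left, and 0 members had more untreated peaks. More DOP than untreated peaks were counted for 1 member with a 1 kb window and for 1 member among peaks scoring at least 100, in place of 3. With RefSeq starts added, an alternative chosen after seeing the data, the highest Foxp1 percentile was 91 in the DOP list and 92.8 in the untreated list. No paired analysis was possible because the files hold 1 list for each condition without replicate numbers, so no replicate could be left out either. Without replicates, none of these counts carries an error.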

Other observations

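Outside the 10 kb windows, weak peaks lay inside some of the long genes. Within Foxp1, 4 DOP peaks lay 40.5, 40.9, 50.4 and 51.6 kb upstream of the nearest GENCODE start, with percentiles of 0.19, 3.18, 20.1 and 35, and none overlapped an untreated peak. The untreated list had peaks of percentile 4.47 and 3.05 elsewhere in the gene, at 32.8 and 57.1 kb from a start. Meis2 had a DOP peak of percentile 5.79 at 16.7 kb, past the end of the gene, and an untreated peak of percentile 4.11 at 71.2 kb, inside it.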
